A study of Mus musculus with 2 samples.

Results

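The V(D)J recombination and end-joining machinery was examined as 10 named genes, Rag1, Rag2, Dntt, Xrcc4, Xrcc5, Xrcc6, Lig4, Dclre1c, Prkdc and Nhej1, taken through every probe set whose single gene symbol in the platform annotation was one of them. This gave 14 of 45037 probe sets and 9 of 18193 named genes. Dclre1c, which encodes the hairpin-opening nuclease Artemis, had 0 probe sets by this rule and has no value here. Expression had been measured on 2 Affymetrix arrays of thymocytes from C57BL/6J mice, with 1 array for each of the titles DKO and TKO. Beads had been used to remove cells carrying lineage markers, and the remaining cells are named DN (double-negative) thymocytes in the series title. By the series' design text, DKO cells carried Cdkn2a-/-, Ring1A-/- and Ring1Bfl/fl without the LckCre transgene, and TKO cells carried the same alleles with LckCre. Cdkn2a and Ring1A loss would then be common to both, and the Lck promoter, active in T-lineage cells, would drive the deletion of Ring1B. The samples' genotype field differs, giving Ring1A and Ring1B loss for DKO and the further loss of Cdkn2a for TKO. Age, sex and the number of animals behind each array are not given in the sources used here. The growth field mentions culture of the mutant cells in standard medium.

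V(D)J recombination assembles antigen receptor genes in developing T and B cells. The RAG1 and RAG2 proteins together cut DNA beside receptor gene segments, and classical non-homologous end joining seals the breaks: the Ku heterodimer and the kinase DNA-PKcs hold the ends, Artemis opens the hairpins, terminal transferase adds untemplated bases, and ligase IV with XRCC4 and XLF joins the strands. In the thymus the recombinase and terminal transferase are restricted to immature lymphocytes, while the end-joining proteins serve break repair in most cells.

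Shown next are 4 promoters, those of the lymphoid-restricted recombinase genes and Dntt, and that of the broadly expressed end-joining gene Xrcc6. Xrcc6 was taken because its brightest probe set had the lowest log2 ratio among the members. Each promoter is shown as the 150 bases before a RefSeq start of transcription (build GRCm38.p6). It is read 5′ to 3′ on the strand of the gene, with CpG dinucleotides in capitals. For Xrcc6 that start lies inside the annotated span of the gene, chr15:81987833-82040085, and not at its 5′ end.
Rag1, chr2:101649533-101649682, - strand: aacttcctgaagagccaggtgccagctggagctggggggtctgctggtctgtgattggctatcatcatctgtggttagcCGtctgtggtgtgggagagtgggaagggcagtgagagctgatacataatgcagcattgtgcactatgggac
Rag2, chr2:101624562-101624711, + strand: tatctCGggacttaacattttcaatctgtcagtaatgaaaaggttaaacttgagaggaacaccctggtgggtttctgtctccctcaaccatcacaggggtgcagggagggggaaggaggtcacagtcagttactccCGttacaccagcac
Dntt, chr19:41029125-41029274, + strand: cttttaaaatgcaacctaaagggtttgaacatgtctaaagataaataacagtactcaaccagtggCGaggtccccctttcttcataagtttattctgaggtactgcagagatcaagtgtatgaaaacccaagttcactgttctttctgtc
Xrcc6, chr15:82016219-82016368, + strand: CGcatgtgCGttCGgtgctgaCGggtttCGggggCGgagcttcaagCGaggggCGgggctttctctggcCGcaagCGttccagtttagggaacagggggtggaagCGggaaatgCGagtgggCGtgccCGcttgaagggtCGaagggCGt
The Xrcc6 stretch held 16 CpG dinucleotides, the Rag2 stretch 2, and the Rag1 and Dntt stretches 1 each. Over the full window of 300 bases, which runs from 250 bases before to 50 bases after the start, Rag1 and Rag2 held 3 CpG each and Dntt 2, against a median of 7 over 32851 promoters. Xrcc4 held 31, Xrcc6 30 and the 2 Lig4 starts 29 and 30, with Dclre1c at 12, Nhej1 at 10 and Xrcc5 at 9. The table held 10 promoters of 9 members, and no promoter of Prkdc was used here. Searched on both strands, with overlapping matches allowed, the GC box GGGCGG was found in 5 of these 10 promoters and in 35.7% of all promoters. The TATA box TATAAA was found in 0 of 10 and in 13.6% of all. The CCAAT box CCAAT was found in 4 of 10 and in 37.4% of all, and the E-box CANNTG in 9 of 10 and in 72.3% of all. These matches describe the letters of the windows, and the arrays do not measure what binds there.

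Signals are the deposited MAS5 intensities in arbitrary units, and the median signal of each array (68.8 for DKO and 71.8 for TKO) served as the floor below which a probe set was not counted as measured. The log2 ratio is TKO minus DKO. With 1 array for each label the spread between animals or cultures is unknown, and no test was possible. A fixed size rule of 2-fold was used in its place. Of the targeted genes, the Cdkn2a signal was 679 for DKO and 18.5 for TKO, the latter below the floor. Ring1 (Ring1A) had 133 and 147, above the floor on both arrays, where both texts give Ring1A loss. The brightest Rnf2 (Ring1B) probe set had 4149 and 4384. The Cdkn2a signal on the DKO array goes against the design text. The Rnf2 signals go against the genotype field on both arrays and, on the TKO array, against the design text too. Neither text was fully met, and whether these probe sets lie in the deleted segments is unknown here, so DKO and TKO below mean the arrays labelled so. Sex-linked genes differed as well: the brightest Xist probe set had 124 on the DKO array and 16502 on the TKO array, and the Y-linked Kdm5d had 652 and 30.4. Eif2s3y and Uty, also Y-linked, were above the floor on the DKO array only, by their measured probe sets. By these signals the DKO array reads as male and the TKO array as female. The part of sex in the results below cannot be told apart from the label and was not tested.

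Among the markers of early T cells, Cd3e, Cd3g, Ptcra, Il2ra, Thy1 and Bcl11b were above the floor on both arrays, and Lck had no probe set with 1 gene. All 6 had negative log2 ratios (median -0.59), with 1 past 2-fold lower, Il2ra at -1.05, and their summed signal was 69065 on the DKO array and 46732 on the TKO array. The B cell markers with a probe set were all at least 2-fold higher on the TKO array (6 of 6, log2 ratios from 1.22 to 2.77, summed signal 4915 and 18399). Of the double-positive and mature T cell markers, Cd4 was below the floor on both arrays and Cd8a, Cd8b1 and Cd5 had log2 ratios of 0.04, 0.15 and -0.07. The other measured Cd8a probe sets were higher on the TKO array, with log2 ratios from 0.10 to 0.52. Of the measured markers of other cells, 2 of 5 myeloid (summed signal of the list 1485 and 3299), 1 of 4 natural killer (1550 and 2974), 0 of 3 thymic stroma (1087 and 1009) and 0 of 1 erythroid (104 and 94.4) were at least 2-fold higher, and 0 were 2-fold lower. Itgam, Hba-a1, Klf1, Foxn1, Col1a1 and Pdgfra were below the floor on both arrays. Rag and Dntt transcripts are made by early B cells as well as by thymocytes, and the part of cell mixture in the member values was not tested. In such bulk samples fewer cells of a type and less RNA per cell cannot be told apart.

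No member passed the size rule. Of the 9 members, 0 were at least 2-fold higher and 0 at least 2-fold lower on the TKO array, where 3.58% and 0.532% of 11280 measured genes were. At 1.5-fold the member counts were also 0 and 0, against 8.66% and 3.27% of all genes. All 9 were above the floor on both arrays by their brightest probe set. Their log2 ratios ran from -0.51 for Xrcc6 to 0.27 for Nhej1, with a median of -0.22 beside a median of -0.03 over all measured genes. With the trend of ratio on signal removed by lowess, the medians were -0.10 for the members and 0.01 for all measured genes. A negative ratio was found in 6 of 9 members and in 53.5% of all measured genes. Differences in log2 ratio between 2 probe sets of the same gene, over 4794 genes, gave a robust SD of 0.23 for a single probe set. The difference itself spreads wider than that. Of the 9 members, 4 (Xrcc6, Dntt, Prkdc and Nhej1) were farther from 0 than 0.23, as were 44.8% of all measured genes. That SD holds no error between RNA preparations or animals.

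**Figure D1:**
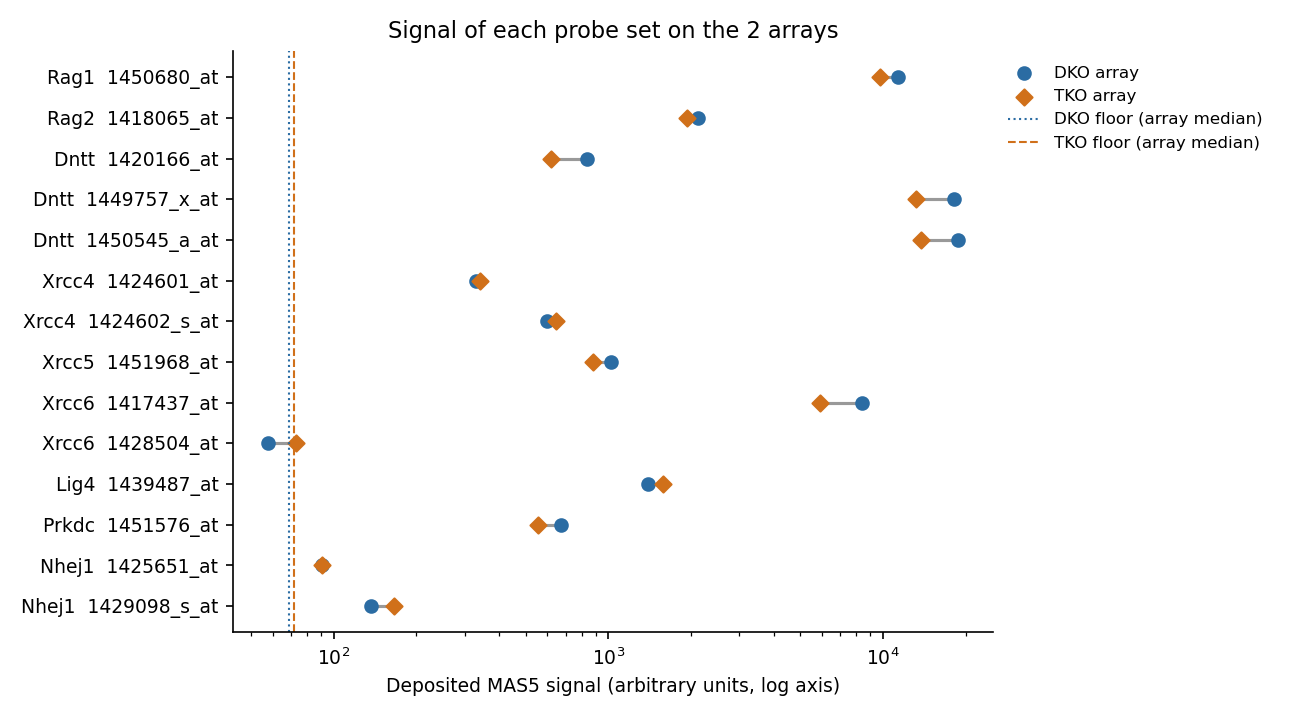
Deposited MAS5 signal (log axis) of the 14 probe sets of 9 members on the DKO array (circles) and the TKO array (diamonds), with the floor of each array as a vertical line. The paired points lie close together for every probe set, and 1 point, the dimmer Xrcc6 probe set on the DKO array at 57.5, lies below its floor.

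The recombinase genes were well above the floor on both arrays. Rag1, whose product carries the DNA-cutting active site, had a signal of 11324 on the DKO array and 9732 on the TKO array. These were 165 and 136 times the floors, and the log2 ratio was -0.22. The ratio was closer to 0 after quantile normalization (-0.12) and after removal of the trend of ratio on signal by lowess (-0.10). Rag2, the partner whose plant homeodomain finger reads a histone mark of active chromatin, had 2118 and 1933 with a log2 ratio of -0.13. Its signals were 30.8 and 26.9 times the floors. Both genes, each read by a single probe set, were thus lower on the TKO array by less than 0.23, the SD of a single probe set. Of all measured genes, 22.9% had a log2 ratio at or below that of Rag1 and 34.5% at or below that of Rag2.

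Genes that lie beside Rag1 and Rag2 in the genome were also within 2-fold. Iftap, which overlaps Rag2, had 521 and 430 (log2 ratio -0.28). Traf6, a ubiquitin ligase of innate immune signalling, had 426 and 416 (log2 ratio -0.04), a second probe set was at 0.18, and another, below the floor on the DKO array, was at 0.41 or above. Prr5l had 122 and 131 (log2 ratio 0.10).

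Among the 4 members with several probe sets, Dntt, which encodes terminal transferase, had the ratios most alike with the signals as deposited. Its brightest probe set had 18810 on the DKO array and 13797 on the TKO array, a log2 ratio of -0.45 or 1.36-fold lower. A probe set of the _x_at type, which can cross-hybridise, had 18089 and 13154 (log2 ratio -0.46). The dimmest one had 838 and 618 (log2 ratio -0.44). The 3 ratios spanned 0.02 on the log2 scale, and all 3 were lower on the TKO array. They were read from the same hybridisations and so are not replicates. Of all measured genes, 6.61% had a log2 ratio at or below that of the brightest Dntt probe set. That probe set moved to -0.31 after quantile normalization and to -0.30 after lowess, while the dimmest one was at -0.47 and -0.42. In those 2 settings the Dntt ratios were less alike than the Xrcc4 ratios, at -0.02 and 0.08 (quantile) and 0.06 and 0.13 (lowess).

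The end-binding members, the subunits of DNA-PK, were all lower on the TKO array by their brightest probe sets. Xrcc6, which encodes Ku70, had 8386 on the DKO array and 5905 on the TKO array, a log2 ratio of -0.51 or 1.42-fold lower. This was the lowest of the 9 member ratios, and 4.95% of all measured genes had a ratio at or below it. Its second probe set did not show this: it had 57.5, below the floor, and 72.7, just above the floor, for a log2 ratio of at least 0.08. As the mean over both probe sets Xrcc6 was at -0.21. Its brightest probe set was at -0.45 after quantile normalization and at -0.41 after lowess. Xrcc5, which encodes the Ku80 partner, had 1023 and 877 (log2 ratio -0.22). Prkdc, which encodes the catalytic subunit DNA-PKcs, had 675 and 553 (log2 ratio -0.29). By the brightest probe sets the 3 DNA-PK genes were negative, with a median log2 ratio of -0.29, as were 53.5% of all measured genes. The Xrcc5 ratio was within 0.23, the SD of a single probe set.

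The ligation members lay on the other side of 0 by their brightest probe sets. Lig4, which encodes the ligase that seals both V(D)J and other breaks, had 1397 on the DKO array and 1580 on the TKO array (log2 ratio 0.18). Xrcc4, the scaffold that stabilises ligase IV, had 598 and 643 by its brightest probe set (log2 ratio 0.11). Its second probe set had 330 and 342 (log2 ratio 0.05). Nhej1, which encodes XLF, had 137 and 166 by a probe set of the _s_at type that can cross-hybridise (log2 ratio 0.27). A second, dimmer Nhej1 probe set had 90.9 and 90.7, with a log2 ratio of -0.003. Nhej1 signals were near the floor, at 1.32 and 1.26 times it for the dimmer probe set. By the brightest probe sets 3 of 3 ligation genes were higher on the TKO array (median log2 ratio 0.18) and the other 6 members lower. Of all measured genes, 53.5% had a negative ratio. The Lig4 and Xrcc4 ratios were within 0.23, the SD of a single probe set, so this split rests on small values. With _x_at and _s_at probe sets left out, Nhej1 joined the lower side, for 7 negative ratios of 9, beside 53.8% of all measured genes.

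**Figure D2:**
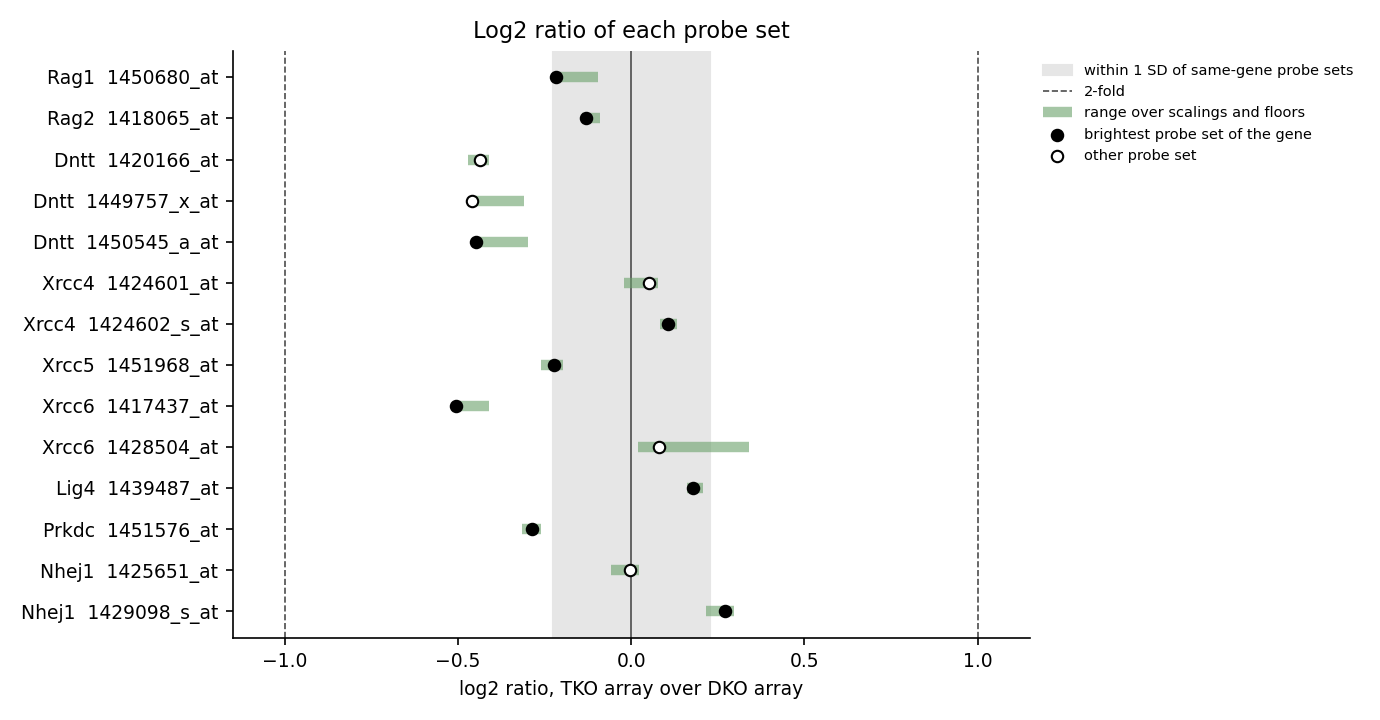
Log2 ratio (TKO over DKO) of each of the 14 probe sets, with filled points for the brightest probe set of a gene and open points for others. Thick bars show the range over the main setting and alternative scalings and floors, the grey band is 0.23 to each side of 0, and dashed lines mark 2-fold. No point or bar reaches 2-fold, and the 3 Dntt points lie between -0.46 and -0.44.

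**Figure D3:**
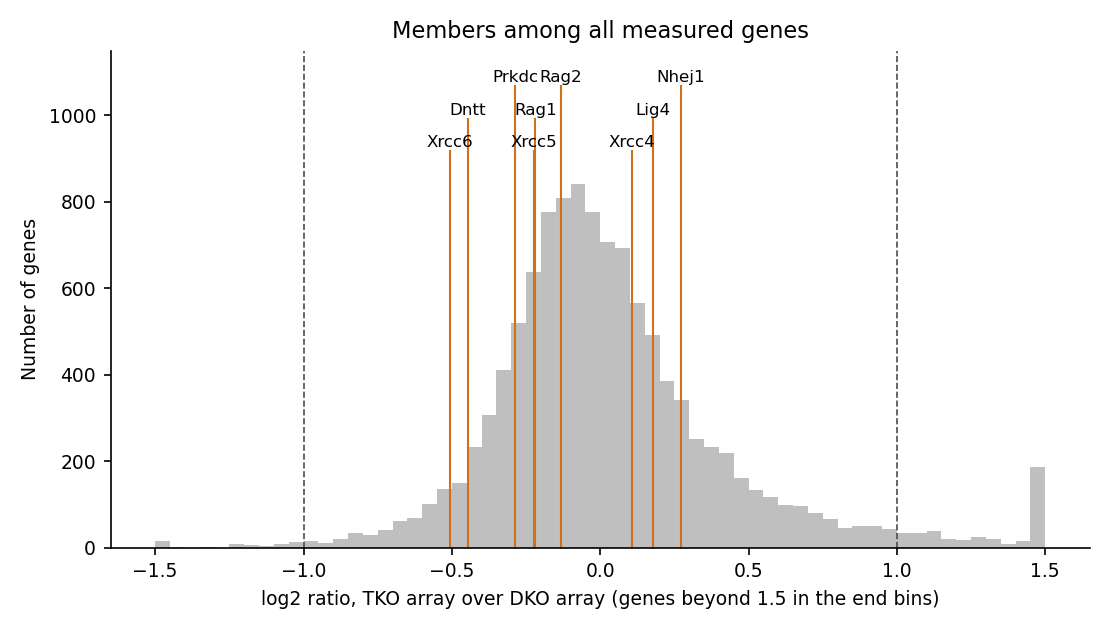
Histogram of the log2 ratio (TKO over DKO) of 11280 measured genes, with a vertical line for each of the 9 members and dashed lines at 2-fold. The members spread from -0.51 to 0.27 within the main body of the distribution, and Xrcc6 and Dntt lie in its lower flank.

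Other genes of V(D)J recombination and break repair were likewise mostly within 2-fold. Of 62 genes in 7 lists, 55 were measured, 2 were at least 2-fold higher, 0 at least 2-fold lower and 53 neither, with a median log2 ratio of -0.05. The 2 higher genes are to be read against the 3.58% of all measured genes that were 2-fold higher, and the 0 lower genes against 0.532%. Among proteins that work with RAG (4 of 5 measured, 0 past 2-fold, median 0.05), the DNA-bending protein gene Hmgb2 had 18363 and 21523 (log2 ratio 0.23), but with _x_at and _s_at probe sets left out it was at -0.13. Skp2, which targets RAG2 for destruction in S phase, had 2933 and 2559 (log2 ratio -0.20), and its other measured probe sets ran from -0.40 to 0.04. The importin gene Kpna1 had 777 and 853 (log2 ratio 0.13), and its other measured probe sets ran from -0.44 to 0.12.

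Accessory end-joining factors (8 of 10 measured, 0 past 2-fold) had a median log2 ratio of 0.09. Polm, a polymerase related to terminal transferase, had 140 on the DKO array and 207 on the TKO array (log2 ratio 0.56), and the related Poll had 140 and 167 (log2 ratio 0.25). Aplf, a histone-binding scaffold of end joining, had 282 and 216 (log2 ratio -0.39), while its other probe set, below the floor on the DKO array, was at 0.14 or above. The template-independent and gap-filling polymerase genes thus did not share a direction, with Dntt negative and Polm and Poll positive, and the latter pair rested on 1 probe set each at dim signals.

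Genes of the double-strand break response (14 of 14 measured, 0 past 2-fold) had a median log2 ratio of -0.13, with 10 of 14 negative. Of all measured genes, 53.5% were negative. The ratios of the list ran from -0.36 to 0.27, and the genes named next are from its negative side. Rad50, a subunit of the complex that senses breaks, had 1615 and 1254 (log2 ratio -0.36), and its partner Nbn had 1339 and 1045 (log2 ratio -0.36). Atm, the kinase they activate, had 1098 and 871 (log2 ratio -0.33), and its second probe set had 1145 and 809 (log2 ratio -0.50). The third subunit of that complex, Mre11a, chosen after its values were seen, had 844 and 693 (log2 ratio -0.29), and its second probe set had 123 and 116 (log2 ratio -0.08). Taken as genes, and not by single probe sets, these 4 stayed between -0.42 and -0.18 across the alternative settings.

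Alternative end joining (5 of 7 measured, 0 past 2-fold) had a median of 0.15. The base-excision scaffold Xrcc1 had 964 and 1176 (log2 ratio 0.29), and the break-sensing polymerase Parp1 had 4200 and 5073 (log2 ratio 0.27). The flap nuclease Fen1 had 5331 and 4449 (log2 ratio -0.26). Polq, the polymerase that defines this route, was below the floor on both arrays at 33.1 and 41.6. Homologous recombination (8 of 10 measured, 0 past 2-fold) had a median of -0.15. In it Rad51c had 221 and 307 (log2 ratio 0.47) with a second probe set at -0.39, Brca2 had 1003 and 827 (log2 ratio -0.28), and Rad54l had 1084 and 904 (log2 ratio -0.26). The other measured Rad54l probe sets ran from -0.66 to -0.13.

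The 2 genes past 2-fold were both B lineage transcription factors in the list of factors that act on Rag1 and Rag2 (14 of 14 measured, 2 higher, 0 lower, 12 neither, median -0.06). Ebf1 had 630 on the DKO array and 3649 on the TKO array, 5.79-fold higher (log2 ratio 2.53), and its 4 measured probe sets lay between 1.78 and 2.56. Pax5 had 74.1 and 299, 4.04-fold higher (log2 ratio 2.01), from a DKO signal just above the floor, and its second probe set, below the floor on the DKO array, was at 0.24 or above. Gfi1b, a repressor of Rag transcription in B cell progenitors, had 47.8, below the floor, and 131, for a log2 ratio of at least 0.92. Its ratio was 1.45 with the floor lowered to the 25th percentile. On the negative side, chosen after its values were seen, Runx1 had 4901 and 3127 (log2 ratio -0.65), and all 6 of its measured probe sets were between -0.71 and -0.19. The signals of Ebf1 and Pax5 were thus higher on the array where Rag1, Rag2 and Dntt were lower by under 1.5-fold. Both are also among the 6 measured B cell markers, all at least 2-fold higher there, and the part of cell mixture was not tested.

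**Figure D4:**
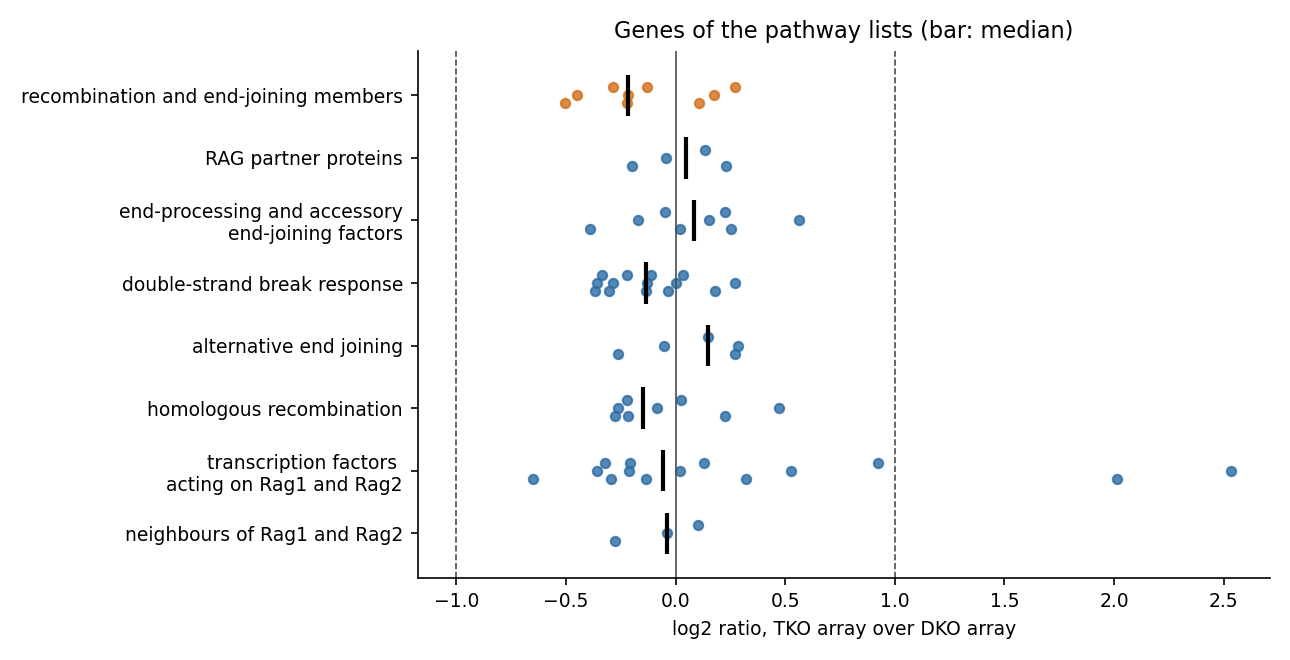
Log2 ratio (TKO over DKO) of the 9 members (top) and of the measured genes of each of the 7 pathway lists, 1 point per gene, with a bar at each median and dashed lines at 2-fold. Ebf1 and Pax5, at 2.53 and 2.01, are the 2 points past 2-fold, and the member median is at -0.22.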

How the data were processed

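Per the labels' protocols, lineage-negative thymocytes were obtained by Dynabeads depletion, and 6 ug of total RNA went into each biotinylated cRNA. The authors deposited linear intensity values, 1 per probe set, made with MAS5 per the submitters' processing notes (settings not given in the sources used here). Both arrays had a trimmed mean of 497 (2% cut from either end). Detection calls were not used here.

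Of 45037 probe sets, 34945 carried 1 gene, 932 several and 9160 none in the platform annotation. Names were updated by Entrez ID (99.4% matched) to RefSeq symbols of GRCm38.p6. Promoter sequences are from RefSeq, build GRCm38.p6. The brightest probe set by mean log2 signal stood for a gene. Signals below an array's median were raised to it, and genes below it on both arrays (6913) have no ratio. With 1 array per label, any batch cannot be told apart from the label, and the number of arrays limits the precision. Alternatives were the median ratio set to 0, quantile normalization, lowess (span 0.3), the mean over measured probe sets, a floor at the 25th percentile or at the 75th, leaving out _x_at and _s_at probe sets, and a 1.5-fold rule. Python 3.11.15, numpy 2.4.6, pandas 2.3.3, statsmodels 0.14.6 and matplotlib 3.10.9 were used. The members and lists were chosen with earlier results of these data known. Named genes are every member, the targeted genes, the genes beside Rag1 and Rag2, and in each pathway list the 3 largest absolute ratios and any gene past 2-fold.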

Additional observations from a re-analysis of the deposited data

How the results depend on the processing

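No member passed 2-fold under any of the 7 alternative settings of scaling, floor or probe set, or passed 1.5-fold in the main setting, and the median log2 ratio of the members stayed between -0.22 and -0.10. The number of negative member ratios was 6 in each setting but the one without _x_at and _s_at probe sets, where it was 7. Beside this, the share of all measured genes with a negative ratio ran from 48.8% (lowess) to 57.6% (floor at the 75th percentile). It was 53.8% in the setting without _x_at and _s_at probe sets. The floor at the 75th percentile left 8 members measured, without Nhej1. Counts over all genes moved more. With the floor at the 25th percentile 962 of 15873 measured genes were at least 2-fold higher and 434 lower. With the 75th percentile 147 of 7191 were higher and 14 lower, since more or fewer dim genes count as measured. With the 1.5-fold rule the counts were 977 and 369 of 11280. With the 75th-percentile floor 1 pathway gene, Ebf1, was past 2-fold, since Pax5 was then below the floor on both arrays. No paired analysis was possible because each label has 1 array and no test was run. Signals near the floor, as for Nhej1 and the second Xrcc6 probe set, limit what can be read from their ratios.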
